A study of Mus musculus with 4 samples.

Results

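The follicle rupture proteases and inhibitors considered here are 9 mouse genes, namely Adamts1, Adamts4, Adamts5, Adamts9, Ctsl, Plat, Plau, Mmp19 and Timp3. A chromatin loop was assigned to a gene when 1 of its anchors lay within 10 kb of the gene body, or when the loop enclosed the gene and spanned under 500 kb. By that rule the genes held 29 distinct loops of the 12920 distinct loops in the 4 loop lists, and all 9 genes had at least 1. Of all 21631 protein-coding genes, 14718 (68.0%) had at least 1 by the same rule. The loops came from 73 calls, of which 21, 16, 21 and 15 were in hCG 1, hCG 2, PMSG 1 and PMSG 2.

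The study mapped chromatin contacts by Micro-C, a micrococcal nuclease version of chromosome conformation capture, in granulosa cells taken from punctured ovaries of 21-day-old mice. In the hCG group (2 libraries), mice received 5 IU of eCG (equine chorionic gonadotropin, also called PMSG, which drives follicle growth), followed by 5 IU of hCG (human chorionic gonadotropin, a stand-in for the surge of luteinizing hormone), and the cells were collected 6 h after hCG. In the PMSG group (2 libraries), mice received the same eCG and no hCG (0 h). For eCG the sample labels name 46 h while the protocol names 44 h, and no strain or genetic change is named. The labels do not say whether the 2 libraries of a group came from separate mice or pools, so the spread between them may be technical, and the 2 to 3 technical replicates behind each library are not given apart.

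Ovulation requires the surge of luteinizing hormone to loosen the matrix between cumulus cells, the follicle basement membrane and the wall at the follicle apex. Secreted ADAMTS metalloproteases cut versican and related proteoglycans, plasminogen activators generate plasmin, matrix metalloproteinases and cathepsins degrade collagen and other proteins, and tissue inhibitors of metalloproteinases restrain them. In mouse granulosa cells Adamts1 and Ctsl are known targets of the progesterone receptor, which the surge induces. Loop anchors commonly mark promoters, enhancers or CTCF sites, and a loop call gives no level of expression.

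The lists held 7664 and 7935 loops in hCG 1 and hCG 2, against 8305 and 6533 in PMSG 1 and PMSG 2, with 311016 and 349717 summed contacts at the called pixels in hCG libraries and 393852 and 272470 in PMSG libraries. A loop is called in bins of 5, 10 or 25 kb, and the contacts observed in the pixel are set against those expected from the surrounding ring of pixels (the donut). The median ratio of observed to expected contacts was 7.23 and 6.64 in hCG libraries and 5.48 and 7.56 in PMSG libraries for 5 kb bins, and only 2.57 and 2.53 in hCG libraries and 2.56 and 2.71 in PMSG libraries for 25 kb bins, so ratios are compared below only at the same bin size. A pixel that was not called has no count in the lists, and a missing call does not show that the contact was absent. The granulosa label cannot be tested from loop calls, which name no expressed gene. With the same assignment rule, all 10 genes of a granulosa list had a loop, as did 8 of 8 theca and stroma genes, 6 of 8 endothelial, 4 of 6 leukocyte and 6 of 7 oocyte genes. The share over all protein-coding genes was 68.0%. The granulosa genes summed to 24 and 27 calls in hCG libraries and 33 and 22 in PMSG libraries, and the leukocyte genes to 4 and 4 in hCG libraries and 3 and 3 in PMSG libraries. Theca and stroma genes summed to 19 and 20 in hCG libraries and 21 and 17 in PMSG libraries. Endothelial genes summed to 7 and 8, against 8 and 5, and oocyte genes to 8 and 6, against 8 and 6. The lists differ in length, so these sums do not rank the cell types.

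RefSeq (GRCm38.p6, the build also called mm10) supplied a 300-base promoter for 4 of the 9 genes, Adamts1, Adamts9, Ctsl and Timp3. Of these, 3 are shown because loop anchors reached them in both treatment groups. Each runs from 250 bases before the start site to 50 after it, 5′ to 3′ on the gene's strand, and the capitals mark matches to the motifs listed after the sequences. They are Adamts1 (chr16:85803064-85803363, minus strand), Timp3 (chr10:86300162-86300461, plus strand) and Ctsl (chr13:64370471-64370770, minus strand).
Adamts1 promoter: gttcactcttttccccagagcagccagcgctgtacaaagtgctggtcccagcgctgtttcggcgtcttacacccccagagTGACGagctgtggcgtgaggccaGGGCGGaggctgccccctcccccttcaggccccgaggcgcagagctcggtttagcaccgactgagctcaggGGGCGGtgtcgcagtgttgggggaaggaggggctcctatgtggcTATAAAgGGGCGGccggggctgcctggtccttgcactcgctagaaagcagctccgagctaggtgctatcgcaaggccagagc
Timp3 promoter: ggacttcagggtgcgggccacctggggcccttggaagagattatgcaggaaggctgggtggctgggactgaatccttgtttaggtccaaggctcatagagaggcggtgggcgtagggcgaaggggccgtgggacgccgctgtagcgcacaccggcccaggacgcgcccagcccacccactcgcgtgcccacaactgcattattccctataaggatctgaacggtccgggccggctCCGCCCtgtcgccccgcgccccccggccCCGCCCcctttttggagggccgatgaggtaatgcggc
Ctsl promoter: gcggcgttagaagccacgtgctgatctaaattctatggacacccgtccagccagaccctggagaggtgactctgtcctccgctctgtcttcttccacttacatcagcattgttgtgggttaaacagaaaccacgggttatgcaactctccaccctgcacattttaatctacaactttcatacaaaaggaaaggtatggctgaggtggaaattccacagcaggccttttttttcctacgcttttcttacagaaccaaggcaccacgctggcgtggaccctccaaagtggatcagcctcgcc

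The motifs searched on both strands were a GC box (GGGCGG, in 35.7% of 32851 promoters of the same length), a TATA box (TATAAA, 13.6%), a CRE half-site (TGACG, 20.8%), a CCAAT box (CCAAT, 37.4%), a RUNX motif (TGTGGT, 16.8%), an AP-1 motif (TGANTCA, 7.81%), an NR5A motif (AAGGTCA, 4.72%) and a CTCF core motif (2.43%). The Adamts1 window held 3 GC boxes beginning at -147, -76 and -25 from the start site, a TATA box at -32 and a CRE half-site at -170, and none of these matches overlapped another. The Timp3 window held 2 GC boxes on the opposite strand, at -15 and 14, and the Ctsl window held no match to any of the 8 motifs. The whole Ctsl window lies inside the annotated gene body (chr13:64361890-64370772), because its start site, 64370520, is inside the gene. Sequence upstream of the annotated Ctsl gene was therefore not searched. GC content was 64.7% with 18 CpG in the Adamts1 window, 67% with 24 CpG in the Timp3 window and 50% with 10 CpG in the Ctsl window, set beside medians of 52.7% and 7 CpG over all promoters. Anchors of 6 calls covered the Adamts1 window, in all 4 libraries. The Timp3 window was covered by 3 calls, in hCG 1, hCG 2 and PMSG 1, and the Ctsl window by 2 calls, in hCG 1 and PMSG 2. The Adamts9 window was covered in PMSG 1 alone and is not shown.

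Of the 29 loops, 11 were in all 4 lists, 4 in 3 lists, 3 in 2 lists and 11 in 1 list. None was called in both hCG libraries and neither PMSG library (a gained loop), where 5.05% of all distinct loops were gained, and none was called in both PMSG libraries and neither hCG library (a lost loop), where 3.80% were lost. Both shares are small for a set of 29 loops, and the counts of 0 are close to this background. Loops in all 4 lists made up 37.9% of the loops at these genes and 29.9% of all distinct loops, and loops in a single list made up 37.9% and 40.0%. By gene, 0 of 9 were at a gained loop (9.80% of all genes with a loop), 0 of 9 at a lost loop (7.94%) and 6 of 9 at a loop in all 4 lists (66.7%, against 53.7%). These counts rest on both libraries of each group. Without hCG 1 there was 1 gained and 1 lost loop, without hCG 2 there were 5 gained and 1 lost, without PMSG 1 there were 2 gained and 1 lost, and without PMSG 2 there were 0 gained and 4 lost. Leaving out a library relaxes the definition for every loop. The share of all distinct loops under each such setting is not given here, so these counts have no background beside them.

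Loops at these genes per 1000 loops of a list were 2.74 in hCG 1 and 2.02 in hCG 2, against 2.53 in PMSG 1 and 2.30 in PMSG 2. The group means were 2.38 ± 0.512 in hCG libraries and 2.41 ± 0.164 in PMSG libraries (SD, n = 2 each). The difference of -0.0341 per 1000 was smaller than the spread within either group, and the 2 groups overlapped. Of the 11 loops in a single list, 5 were in hCG 1, 1 in hCG 2, 4 in PMSG 1 and 1 in PMSG 2. The 2 libraries with most such loops belonged to different groups. The split by library of all single-list loops is not given here, so these counts have no background beside them.

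**Figure D1:**
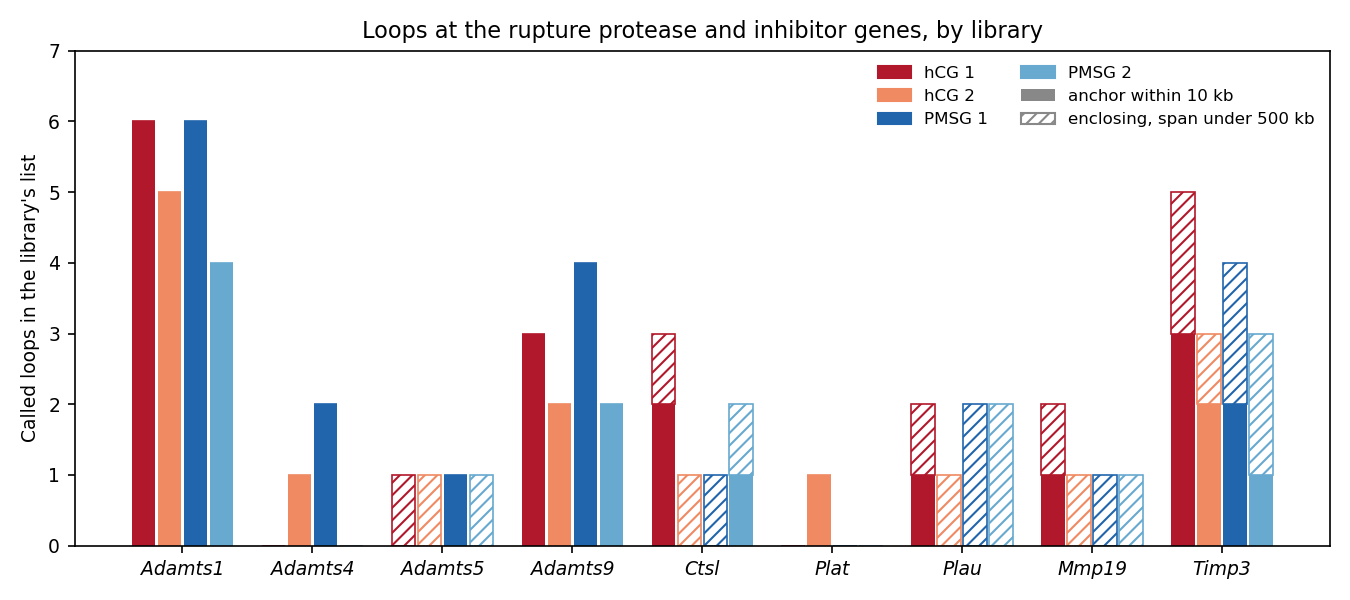
Number of called loops at each gene (y axis) in the 2 hCG and the 2 PMSG libraries (bars), with filled bars for loops that have an anchor within 10 kb and hatched bars for loops that only enclose the gene. Adamts1 has 4 to 6 calls in every library, while Plat has a single call, in hCG 2.

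Adamts1, a secreted metalloprotease that cuts versican in the expanding cumulus and the follicle wall, lies at chr16:85793827-85803113. It had 6 distinct loops, all with an anchor at the gene, and 2.87% of 21631 protein-coding genes had as many or more. Every loop had the Adamts1 side as its lower-numbered anchor and ran past Adamts5 towards higher coordinates, which is upstream of Adamts1 because the gene is on the minus strand. The spans were 485, 610, 830, 1075, 1435 and 1575 kb. Those over 1000 kb numbered 3, a span that 3.68% of all distinct loops exceeded. The 5 shorter Adamts1 loops were in all 4 lists, and the 1575 kb loop was in hCG 1, hCG 2 and PMSG 1.

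The 5 kb bin most often used as the Adamts1 anchor, chr16:85805001-85810000, began 1.89 kb upstream of the start site whose promoter is printed above, and the wider 10 and 25 kb bins beginning at 85800001 covered that promoter. Partner anchors sat at nearly the same place in every library. In the 610 kb loop the partner bin was chr16:86415001-86420000 in hCG 1 and PMSG 1 and the adjoining 5 kb bin in hCG 2, and in the 830 kb loop it was chr16:86640001-86645000 in all 4 libraries. The largest shift of an anchor midpoint over the 4 libraries was 5 kb for the 830 kb loop, 7.5 kb for the 610, 1075 and 1435 kb loops and 12.5 kb for the 485 kb loop.

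The 830 kb loop had 13 contacts in hCG 1 and 19 in hCG 2, against 27 in PMSG 1 and 12 in PMSG 2, all in 5 kb bins, where 1.79 and 1.60 were expected in hCG libraries and 1.52 and 1.24 in PMSG libraries. The ratios were 7.27 and 11.9 in hCG libraries and 17.8 and 9.66 in PMSG libraries. PMSG 1 was the highest and hCG 1 the lowest, and the other PMSG library lay between the 2 hCG libraries, so the groups overlapped. The group means were 9.58 ± 3.27 in hCG libraries and 13.7 ± 5.76 in PMSG libraries (SD, n = 2 each).

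The 610 kb loop had 16 contacts in hCG 1 and 15 in hCG 2, against 25 in PMSG 1, all in 5 kb bins, with ratios of 9.54 and 8.62 in hCG libraries and 12.3 in PMSG 1. PMSG 2 was called in 10 kb bins, with 29 contacts and a ratio of 6.72. At 5 kb the PMSG value was above both hCG values, on 1 library. The 1075 kb loop was called in 10 kb bins in both hCG libraries, with 25 and 27 contacts and ratios of 5.35 and 5.30. It was called in 5 kb bins in both PMSG libraries, with 25 and 15 contacts and ratios of 16.2 and 14.5. As no bin size was common to the groups, no difference in strength can be given for the 1075 kb loop. Its Adamts1-side midpoint averaged 7.5 kb apart between the groups, less than the width of 1 of the 10 kb bins.

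The 1435 kb loop had 27 contacts in hCG 1 (10 kb bins) and 13 in hCG 2 (5 kb bins), against 18 in PMSG 1 (5 kb) and 24 in PMSG 2 (10 kb). The ratios were 5.90 in hCG 1 and 6.55 in PMSG 2 at 10 kb, and 7.02 in hCG 2 and 7.41 in PMSG 1 at 5 kb. At each bin size each ratio lay inside the 95% Poisson interval of the other, which was 3.89 to 8.58 in hCG 1 and 4.20 to 9.75 in PMSG 2 at 10 kb. The 1575 kb loop ended at Ltn1, an E3 ubiquitin ligase of ribosome quality control, and was called in 25 kb bins, with 46 and 52 contacts in the hCG libraries and 48 in PMSG 1. It is the loop that PMSG 2, the shortest list, lacked. Of all 23 calls of Adamts1 loops, 22 had a ratio above the median of their own library and bin size (12 of 12 in hCG libraries and 10 of 11 in PMSG libraries), and over all 73 calls 50 did. The 23 calls are repeated calls of 6 loops that share the Adamts1 side, so they are not separate observations. The medians cover loops of every span, and no comparison with loops of like span was made.

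The anchors of the Adamts1 loops also met each other. The Adamts1 side and its 6 partner anchors form 21 pairs, of which 16 were called in at least 1 library and 8 in all 4. By library, 12 and 12 pairs were called in hCG 1 and hCG 2, against 11 and 13 in PMSG 1 and PMSG 2, and the groups overlapped. Besides the 5 pairs with Adamts1, the pairs in all 4 lists joined the partners of the 830, 1075 and 1435 kb loops in each of their 3 combinations. The pair joining the partners of the 1435 and 1575 kb loops, singled out after its calls were seen, was present in hCG 1 and hCG 2 and absent from the lists of PMSG 1 and PMSG 2. It is 1 of the 16 called pairs, and 5.05% of all distinct loops were gained in this sense. The pair touches none of the 9 genes and is not among the 29 loops.

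Adamts5, an aggrecanase that also cuts versican, is the neighbour of Adamts1 at chr16:85858157-85901125 and lies on the path of all 6 Adamts1 loops. It was enclosed by the 485 kb loop under the span limit, which reached from upstream of Adamts1 to a partner bin near 86300001. That loop had 24 and 26 contacts in hCG 1 and hCG 2 (10 kb bins), against 29 in PMSG 1 (10 kb) and 17 in PMSG 2 (5 kb). At 10 kb its ratios were 5.72 and 5.63 in hCG libraries and 4.22 in PMSG 1. The single 10 kb PMSG value was below both hCG values, the reverse of the order seen at 5 kb in the 610 kb loop. At the edge of the rule, the Adamts1-side anchor of this loop was 6.89 kb from the gene in hCG 1 and PMSG 1, inside the 10 kb limit, and 16.9 kb in hCG 2 and 11.9 kb in PMSG 2, outside it. The span was 490 kb in hCG 1, just inside the enclosing limit, and 500 kb in PMSG 1, just outside. The only loop anchored at Adamts5 itself was a 410 kb loop to the same partner bin, in PMSG 1 alone, with 21 contacts where 5.61 were expected.

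**Figure D2:**
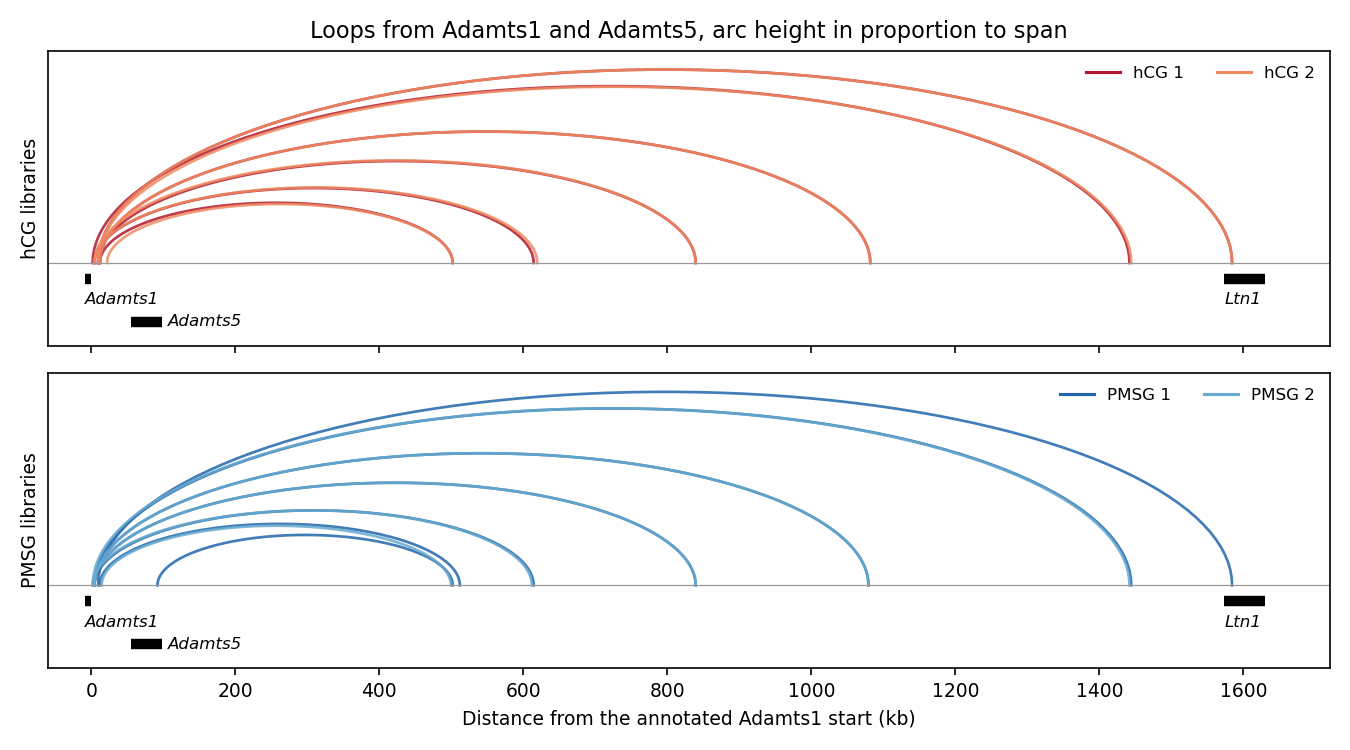
Called loops of Adamts1 and Adamts5 as arcs between anchor midpoints, by distance from the annotated Adamts1 start in kb (x axis), with hCG libraries in the upper panel and PMSG libraries in the lower one, and arc height in proportion to span. The same 5 partner positions between 485 and 1435 kb appear in all 4 libraries, and the arc of 1575 kb to Ltn1 is missing in PMSG 2.

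Timp3, the matrix-bound inhibitor of metalloproteinases and of several ADAMTS enzymes, lies at chr10:86300412-86349505 inside the body of Syn3, which encodes the synaptic vesicle protein synapsin III. All of its loops had both anchors within the Syn3 body. It had 5 distinct loops, and 6.05% of protein-coding genes had as many or more. Loops at the start of Timp3 pointed both ways along the chromosome, a 235 kb loop towards lower coordinates and a 150 kb loop towards higher ones.

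The 235 kb loop joined the bins just before the Timp3 start (0.411 kb from it in every library) to chr10:86060001-86070000 and was in all 4 lists. In 10 kb bins it had 28 contacts in hCG 2, against 41 in PMSG 1 and 22 in PMSG 2, with ratios of 4.43 in hCG 2 and 3.84 and 4.14 in PMSG libraries. In hCG 1 it was called in 5 kb bins, with 12 contacts and a ratio of 9.43. The hCG value at 10 kb was above both PMSG values, which lay inside its 95% Poisson interval of 2.94 to 6.40.

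The 150 kb loop, whose anchor covered the Timp3 promoter printed above, had 22 and 26 contacts in hCG 1 and hCG 2, against 34 in PMSG 1, all in 10 kb bins, and no call in PMSG 2. The ratios were 4.54 and 3.39 in hCG libraries and 3.05 in PMSG 1. A 395 kb loop enclosed Timp3 in all 4 lists, in 5 kb bins, with 15 and 17 contacts in hCG libraries and 28 and 14 in PMSG libraries. Its ratios of 8.69 and 6.82 in hCG libraries and 8.55 and 8.15 in PMSG libraries overlapped. The 395 kb loop shared its lower anchor with the 235 kb loop and its upper anchor with the 150 kb loop, so the 3 contacts link the Timp3 start and both far anchors pairwise.

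A 270 kb enclosing loop was called in hCG 1, PMSG 1 and PMSG 2, with 16 contacts in hCG 1 and 27 in PMSG 1 at 10 kb, and 55 in PMSG 2 at 25 kb. A 100 kb loop to the Timp3 start was in hCG 1 alone, with 79 contacts where 39.2 were expected. Over the 4 anchors at Timp3 there are 6 pairs, of which 5 were called in hCG 1 and 3 in hCG 2, against 4 in PMSG 1 and 3 in PMSG 2.

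Adamts9, a versican-cutting protease of the same family, is a long gene at chr6:92772699-92944450 on the minus strand. It had 4 distinct loops, all anchored within the gene. Those of 660, 755 and 925 kb were anchored at or near its lower-numbered end, which is the far end from the promoter, 143.5 to 158.5 kb from the start site. The 660 kb loop had 70 and 83 contacts in hCG 1 and hCG 2, against 74 in PMSG 2, in 25 kb bins, with ratios of 2.70 and 2.58 in hCG libraries and 3.21 in PMSG 2. PMSG 1 was called at 10 kb, with 33 contacts and a ratio of 4.69. The 755 kb loop had 13 contacts in hCG 1 and 17 in PMSG 1 at 5 kb, with ratios of 9.03 in hCG 1 and 7.73 in PMSG 1. It had 22 contacts in hCG 2 at 10 kb and 95 in PMSG 2 at 25 kb. At matched bins the 660 kb ratio was higher in PMSG 2 than in both hCG libraries, and the 755 kb ratio was higher in hCG 1 than in PMSG 1. Each comparison rests on 1 PMSG library, and the 95% Poisson intervals overlapped, so no order of the groups can be given.

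A 150 kb loop joined both ends of Adamts9, with 26 contacts in hCG 1 (10 kb bins) and 138 in PMSG 1 (25 kb bins). A 925 kb loop from its lower-numbered end into the body of Magi1, a scaffold protein of cell junctions, was in PMSG 1 alone, with 65 contacts where 22.6 were expected. Neither was in hCG 2 or PMSG 2. Adamts4, an aggrecanase at chr1:171250129-171262267, had a 140 kb loop in hCG 2 and PMSG 1. Its partner anchor held an end of Cfap126, a protein of motile cilia. That loop had 54 contacts and a ratio of 4.04 in hCG 2, against 97 and 4.41 in PMSG 1, both in 10 kb bins, and their Poisson intervals of 3.03 to 5.27 in hCG 2 and 3.57 to 5.38 in PMSG 1 overlapped. A 35 kb loop to the ends of Apoa2, Nr1i3 and Tomm40l was in PMSG 1 alone, with 29 contacts.

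Ctsl, the lysosomal cysteine protease cathepsin L, lies at chr13:64361890-64370772 between Prxl2c, which encodes a peroxiredoxin-like protein, and Cdk20, a cyclin-dependent kinase. Its most regular loop did not touch it. A 125 kb loop joined an end of Prxl2c to an end of Cdk20 in all 4 lists, in 5 kb bins, with Ctsl in between. It had 23 contacts in both hCG 1 and hCG 2, against 29 in PMSG 1 and 24 in PMSG 2. The ratios were 9.88 and 7.52 in hCG libraries and 6.84 and 13.0 in PMSG libraries, so that the PMSG values lay on either side of the hCG values.

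The loops anchored at Ctsl were called less regularly. A 50 kb loop from Ctsl to Cdk20, whose anchor covered the Ctsl window printed above, had 37 contacts in hCG 1 and 35 in PMSG 2. Its ratios at 10 kb were 2.44 in hCG 1 and 3.21 in PMSG 2. A 50 kb loop from Prxl2c to Ctsl was in hCG 1 alone, with 38 contacts and a ratio of 3.05. Thus hCG 1 held all 3 contacts among Prxl2c, Ctsl and Cdk20, hCG 2 and PMSG 1 held 1, and PMSG 2 held 2.

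Plau, the urokinase-type plasminogen activator, lies at chr14:20836662-20843388. It was enclosed by a 70 kb loop called in exactly the same pixel in all 4 libraries, joining chr14:20800001-20805000 to chr14:20870001-20875000. The contacts were 53 and 45 in hCG 1 and hCG 2, against 49 and 25 in PMSG 1 and PMSG 2, where 5.11 and 6.65 were expected in hCG libraries and 8.22 and 4.14 in PMSG libraries. The ratios were 10.4 and 6.77 in hCG libraries and 5.96 and 6.04 in PMSG libraries. Both hCG ratios were above both PMSG ratios, and hCG 1 stood apart from the other 3 libraries. The means were 8.57 ± 2.55 in hCG libraries and 6.00 ± 0.0538 in PMSG libraries (SD, n = 2 each). The observed contacts themselves overlapped between the groups, and the expected contacts were highest in PMSG 1.

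The other Plau loops were each in 1 list. A 100 kb loop from the body of Camk2g, a calcium-dependent kinase, was the only one anchored within 10 kb of Plau (6.61 kb) and was in hCG 1, with 160 contacts where 71.7 were expected. Loops of 275 kb in PMSG 1 (139 contacts) and 210 kb in PMSG 2 (28 contacts) enclosed Plau and ended in the body of Vcl, which encodes the adhesion protein vinculin. Their lower anchors lay more than 20 kb apart, so they were counted as 2 loops. Plat, the tissue-type plasminogen activator at chr8:22757722-22782848, had 1 loop, in hCG 2. It spanned 150 kb between bins holding ends of Dkk4, a Wnt antagonist, and Polb, a DNA repair polymerase, and ends of Plat and Ap3m2, an adaptor protein subunit, with 92 contacts where 45.8 were expected in 25 kb bins. Its ratio of 2.01 was below the median of 2.53 for 25 kb bins in that library.

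Mmp19, a matrix metalloproteinase that degrades basement membrane proteins, lies at chr10:128790910-128800827. A 160 kb loop enclosed it in hCG 2, PMSG 1 and PMSG 2, with its upper anchor at ends of Cd63 and Gdf11, which encode a tetraspanin and a growth factor of the TGF-beta family. In 25 kb bins it had 122 contacts and a ratio of 2.34 in hCG 2, against 68 contacts and 2.08 in PMSG 2. In 10 kb bins it had 38 contacts and a ratio of 3.28 in PMSG 1. The loop of 60 kb with an anchor overlapping Mmp19 was in hCG 1 alone, with 40 contacts and a ratio of 3.39. That anchor reached only the higher-numbered end of Mmp19 and also held ends of Tmem198b and Dnajc14. The other anchor held ends of Dgka and Pym1. A 50 kb enclosing loop was also in hCG 1 alone, with 38 contacts. No call of the 5 at Mmp19 reached the median ratio of its own library and bin size.

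**Figure D3:**
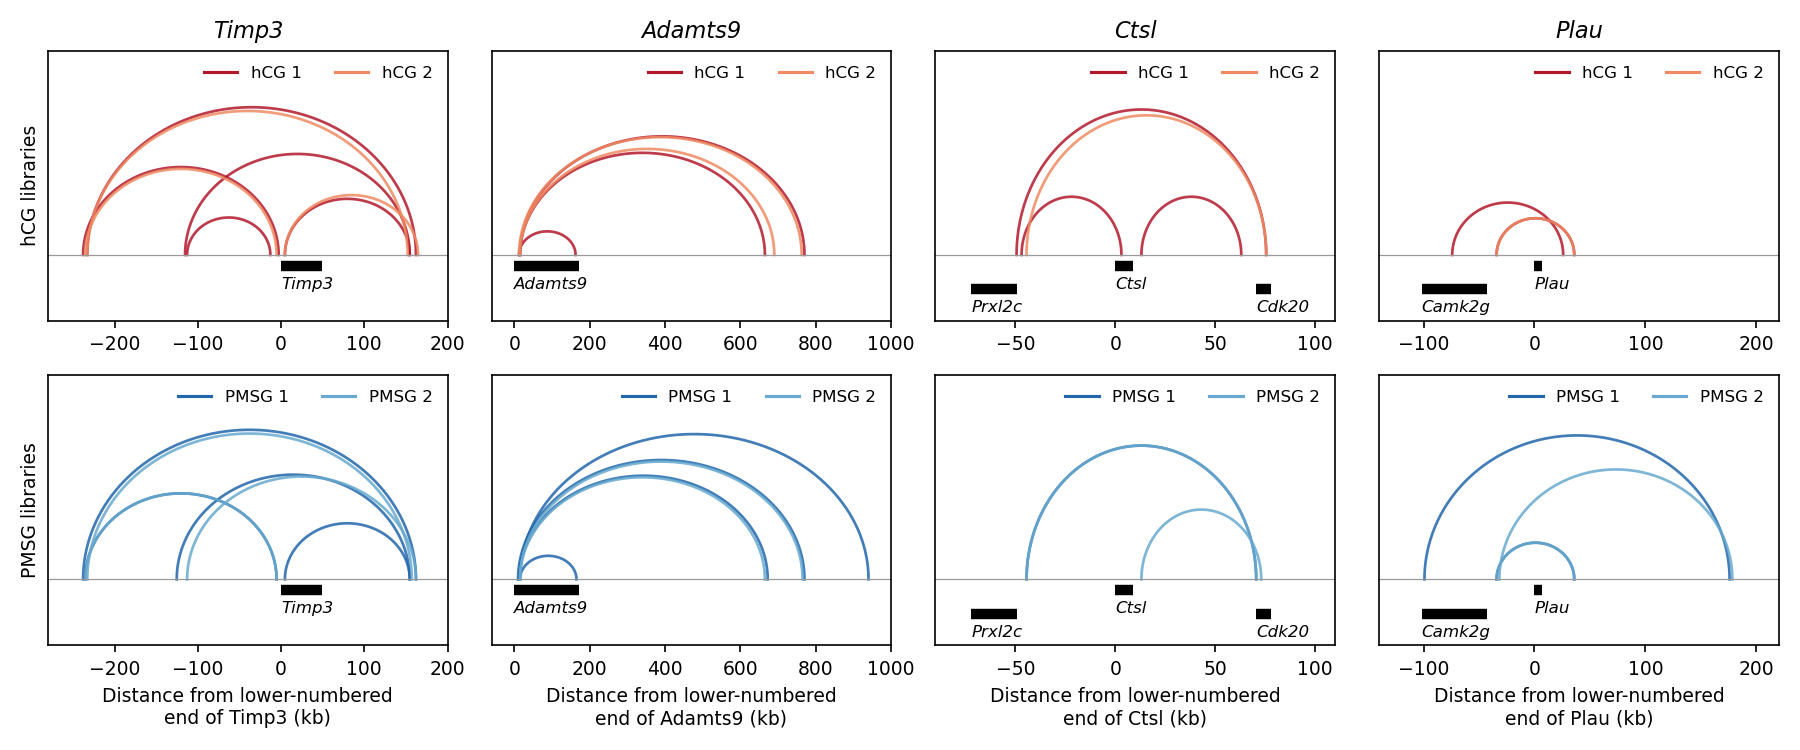
Called loops at Timp3, Adamts9, Ctsl and Plau as arcs between anchor midpoints, by distance from the lower-numbered end of each gene in kb (x axis), with hCG libraries above and PMSG libraries below, arc height in proportion to span within a gene, and black bars for genes. The longest Timp3 and Ctsl arcs and the shortest Plau arc appear in all 4 libraries, while the 50 kb Ctsl arcs appear in hCG 1 and PMSG 2 and the long Plau arcs in PMSG 1 or PMSG 2.

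**Figure D4:**
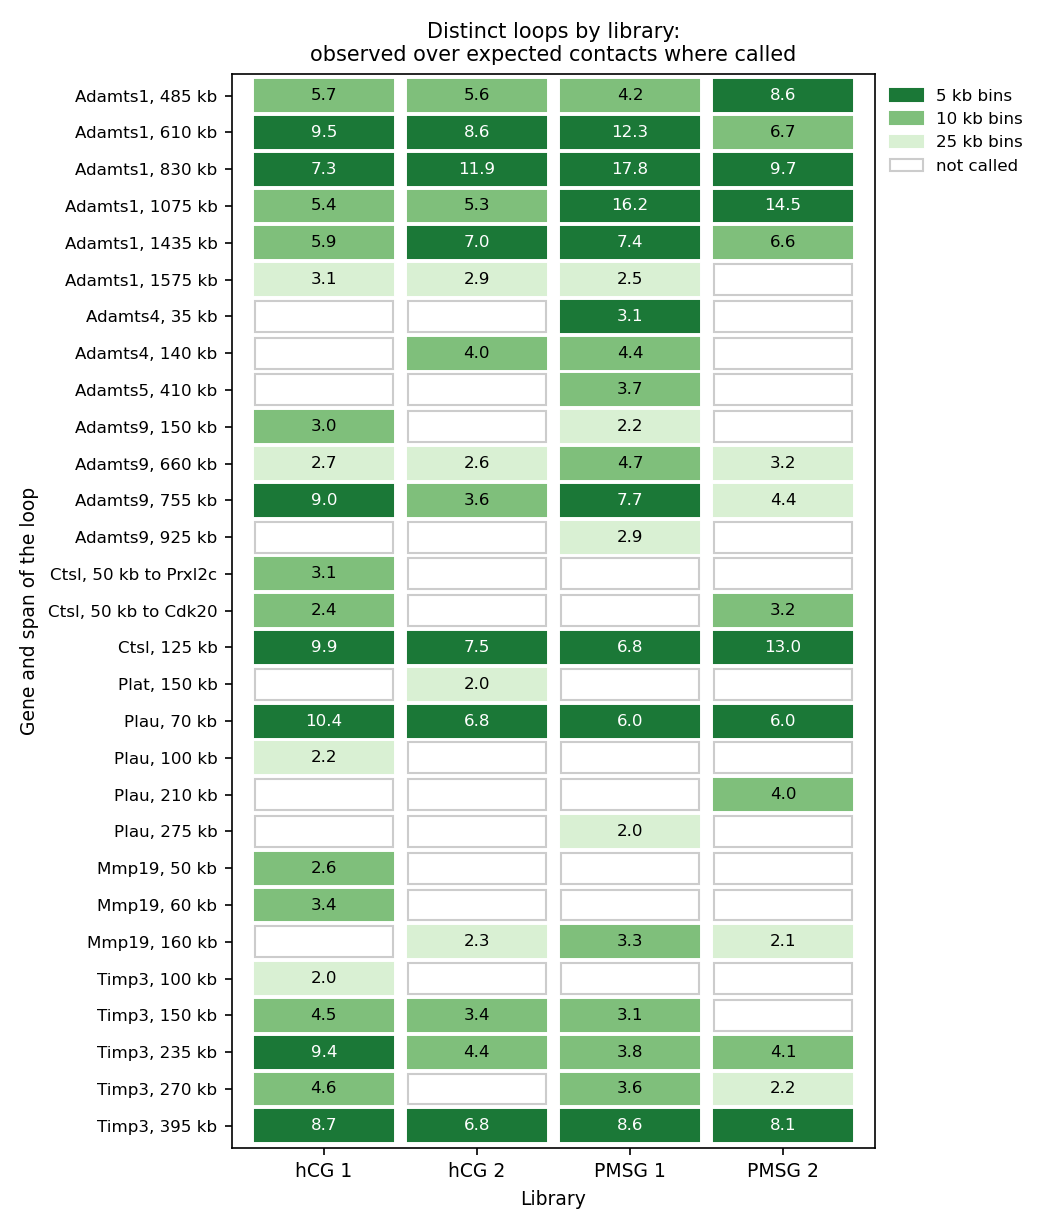
The 29 distinct loops by gene and span in kb (rows) in the 2 hCG and 2 PMSG libraries (columns), with the ratio of observed to expected contacts printed where the loop was called and the shade giving the bin size. Ratios fall with bin width, and no row is filled in both hCG columns and empty in both PMSG columns, or the reverse.

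Loop strength was tested with edgeR's quasi-likelihood test on observed contacts, with the expected contacts as offset, for the 1366 loops in all 4 lists that shared a bin size. Among the 11 such loops at these genes, 4 could be tested, namely the Adamts1 830 kb, Timp3 395 kb, Ctsl 125 kb and Plau 70 kb loops, all at 5 kb. None of the 4 had an adjusted p under 0.05 in edgeR, and neither had any of the 1366 loops (0% called, with the smallest adjusted p at 0.155), while 91 loops (6.66%) had an unadjusted p under 0.05 and DESeq2 gave 0 calls and 6 such loops. The median log2 difference, hCG over PMSG, was -0.09 over the 4 loops and 0.15 over all loops tested, of which 90% lay between -0.28 and 0.60. An added TMM scaling factor moved the median of all loops to 0.01, and the 4 loops then had log2 differences of -0.71 for Adamts1, -0.29 for Timp3, -0.19 for Ctsl and 0.33 for Plau.

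The Adamts1 830 kb loop had a log2 difference of -0.58 (SE 0.337, 95% interval -1.28 to 0.12, edgeR adjusted p = 0.781). The Plau 70 kb loop had 0.48 (SE 0.235, 95% interval -0.01 to 0.97, edgeR adjusted p = 0.727). The Timp3 395 kb loop had -0.15 (SE 0.295, 95% interval -0.76 to 0.46, edgeR adjusted p = 0.955), with means of 7.76 ± 1.32 in hCG libraries and 8.35 ± 0.287 in PMSG libraries (SD, n = 2 each). The Ctsl 125 kb loop had -0.03 (SE 0.310, 95% interval -0.67 to 0.62, edgeR adjusted p = 0.992), with means of 8.70 ± 1.67 in hCG libraries and 9.92 ± 4.34 in PMSG libraries. Every interval included 0, and a p that misses the threshold does not show that the groups were alike. Without PMSG 1 the Adamts1 value was -0.03, without hCG 1 the Plau value was 0.18, and the Ctsl value ran between -0.60 without PMSG 1 and 0.32 without PMSG 2.

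**Figure D5:**
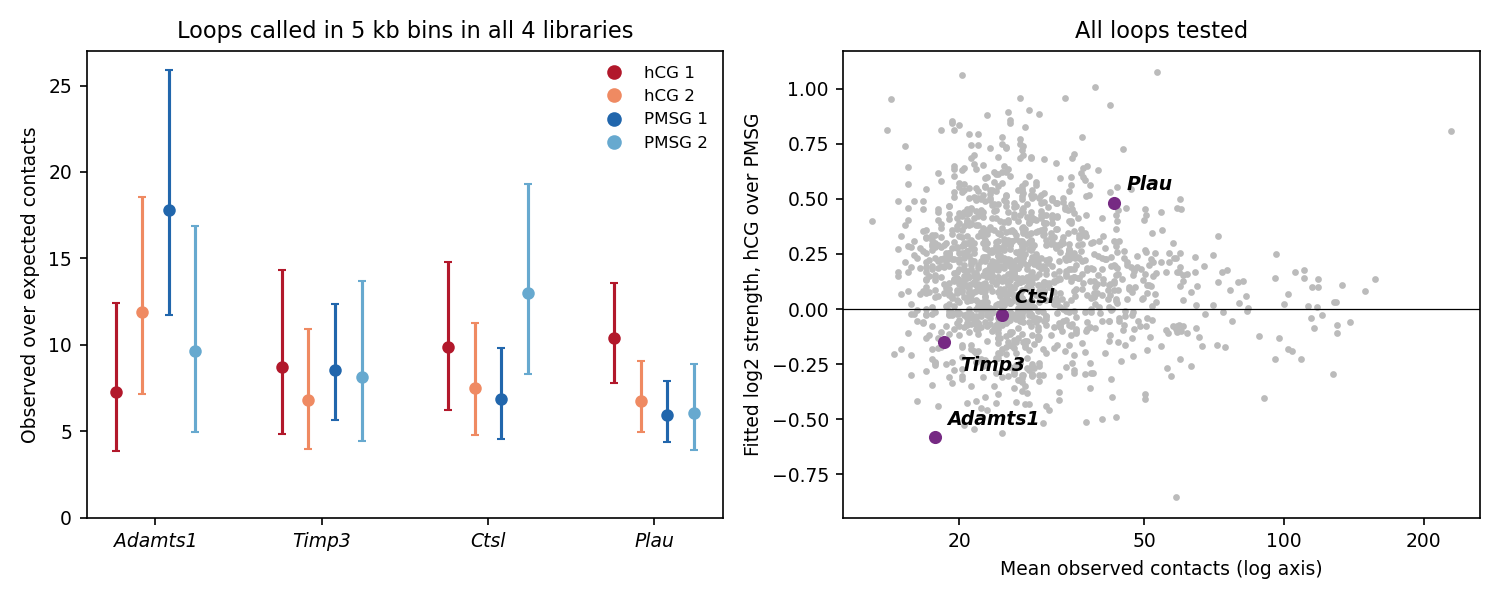
Left, ratio of observed to expected contacts (y axis) in each of the 2 hCG and 2 PMSG libraries for the 4 loops that could be tested, with bars for the 95% Poisson interval of the observed count; right, fitted log2 strength of hCG over PMSG (y axis) against mean observed contacts on a log axis for the 1366 loops tested, with the 4 loops in purple. The Adamts1 loop is near the lower edge of the cloud at -0.58 and the Plau loop above its middle at 0.48, and the Poisson bars of hCG and PMSG libraries overlap for all 4 loops.

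Counting an anchor that held a gene end (within 2.5 kb) in at least 1 call, the 29 loops had one on both sides in 10 loops (34.5%, against 21.5% of all distinct loops), on 1 side in 13 (44.8%, against 43.3%) and on neither in 6 (20.7%, against 35.2%). The assignment rule placed an anchor within 10 kb of a member for 21 of the 29 loops, and the member's own ends were counted. The higher shares are therefore partly set by that rule and are not a result about these genes. A loop in more lists also has more calls to count. With 1 call per loop (the smallest bin), both sides held an end in 8 loops (27.6%, against 16.3%) and neither did in 11 (37.9%, against 42.7%). The median span was 210 kb, against 175 kb for all distinct loops. Loops over 400 kb made up 10 of the 29 and 19.5% of all distinct loops, and all 10 were at Adamts1, Adamts5 or Adamts9. The loops at Ctsl, Plat and Adamts4 all ran between ends of neighbouring genes.

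Among 78 other genes of matrix proteolysis (further ADAMTS, ADAM and matrix metalloproteinase genes, cathepsins, serpins, TIMPs, cystatins and proprotein convertases), 67 had a loop by the same rule, as did 68.0% of all protein-coding genes. Of the 67, 4 were at a gained loop (5.97%, against 9.80% of all genes with a loop) and 7 at a lost loop (10.4%, against 7.94%). The shares are near those of all genes. The gained loops were at Furin, Adam8 and Adamts6 and around Timp1, and the lost loops were at Adamts7, Adam10, Mmp17, Pcsk5, Pcsk6 and Prss35 and around Ctsb.

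Furin, a proprotein convertase that activates ADAMTS and other secreted enzymes, had 2 gained loops, the longer of 100 kb with 129 and 147 contacts in hCG 1 and hCG 2, where 58.5 and 76.8 were expected. Timp1, a soluble inhibitor of metalloproteinases, was enclosed by a gained 120 kb loop with 14 contacts in hCG 1 (5 kb bins) and 29 in hCG 2 (10 kb bins). Adamts6 had a gained 400 kb loop with 14 contacts in hCG 1 (5 kb) and 25 in hCG 2 (10 kb). Adam8, a membrane metalloprotease of leukocytes, had a gained 100 kb loop with 90 contacts in hCG 1 (25 kb) and 28 in hCG 2 (10 kb). The Timp1 and Adamts6 loops rest on 14 to 29 contacts.

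On the lost side, Adamts7 had a 475 kb loop with 45 and 36 contacts in PMSG 1 and PMSG 2, and Adam10, a membrane sheddase, had a 400 kb loop with 32 and 23. Prss35, a serine protease-like protein known from the mouse ovary, had a loop with 23 contacts in PMSG 1 (160 kb, 5 kb bins) and 40 in PMSG 2 (150 kb, 10 kb bins). Ctsb, cathepsin B, was enclosed by 2 lost loops, of which the 180 kb one had 55 and 28 contacts in PMSG 1 and PMSG 2. Of the 6 distinct loops of Ctsb, 1 was in all 4 lists, as was 1 of the 3 of Ctsl. None of these loops has a count in the libraries where it was not called, so no fold change can be given.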

How the data were processed

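Micro-C loop lists of 4 libraries of mouse granulosa cells (2 hCG, 2 PMSG) were used. Reads were aligned to mm10 with BWA and processed with Juicer, per the submitters' processing notes, and loops were called and merged over bins of 5, 10 and 25 kb by juicer_tools 1.22.01, per the file headers. For each loop the deposited columns give the observed contacts as a count, the expected contacts (donut, horizontal, vertical and lower left) as a signal, 4 FDR q-values, of which none exceeded 0.1 in the deposited files, and cluster scores that were left unused here. Whether the counts were balanced is not given in the sources used here. Contact maps behind the lists were not analysed here.

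Genes came from RefSeq GRCm38.p6 (21631 protein-coding genes on chromosomes 1 to 19 and X). Calls with both anchor midpoints within 20 kb were joined into distinct loops. Of 3859 loops in all 4 lists, 1366 with a shared bin size were tested with edgeR 4.0.16 (quasi-likelihood, offset log expected, no replicate block, Benjamini-Hochberg over all 1366, threshold 0.05), with DESeq2 1.42.0 as an alternative, after a check on simulated counts. Intervals on single ratios are exact Poisson intervals (95%) that take the expected value as fixed and cover counting error only. R 4.3.3, Python 3.11.15, pandas 2.3.3 and scipy 1.17.1 were used. Other matching distances, FDR limits, list lengths, assignment rules, expectations, scalings, filters and left-out libraries were tried. Named genes were the 9 members, genes with an end within 2.5 kb of a partner anchor or, failing an end, the gene whose body held it, and listed pathway genes at gained or lost loops; the naming of genes by body was chosen after their positions were seen. The members and all gene lists were chosen with earlier results of these data known.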

Additional observations from a re-analysis of the deposited data

How the results depend on the processing

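With 2 libraries a group, a loop counts as gained or lost only if called in both libraries of 1 group and missed in both of the other. Median contacts at the called pixels were 32 and 34 in hCG libraries and 36 and 32 in PMSG libraries. These medians leave out uncalled pixels, and an effect of depth on calling or testing was not tested. The 29 distinct loops became 21 to 30 over the alternatives, with no gained or lost loop under the 10 kb or 50 kb matching distance, with anchors required to overlap the gene, or without enclosing loops. With all 4 FDR values at most 0.01 there was 1 lost loop, at Timp3, and with lists of equal length there was 1 gained loop, at Adamts1, and 1 lost loop, at Mmp19. Leaving out 1 library gave 0 to 5 gained loops (5 without hCG 2, at Ctsl, Mmp19, Plau and Timp3) and 1 to 4 lost loops (4 without PMSG 2, at Adamts4, Adamts5, Adamts9 and Plau). For these FDR, list-length and left-out settings the share of all distinct loops is not given here, so the counts have no background. The 5 gained loops without hCG 2 were those called in hCG 1 alone. The 4 lost loops without PMSG 2 were those called in PMSG 1 alone. A cause of these counts was not tested. The difference in loops per 1000 ran from -0.396 without hCG 1 to 0.328 without hCG 2, beside a pooled SD between libraries of 0.38, which the first of these exceeds.

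Strength calls over all loops numbered 3 with the horizontal and vertical expectation, and 1 to 12 when 1 library was left out (12 without PMSG 2), and none was at the 9 genes. With that expectation the small Timp3 and Ctsl values turned to 0.02 and 0.03. The smallest adjusted p of any of the 4 loops over all alternatives was 0.312, for Adamts1 without PMSG 2, where its value was -0.91. With only identical pixels 1 of the loops remained (Plau), so the median of 0.48 is its own value. A fit with the replicate number as a block gave 0 calls and a median of -0.11 over the 4 loops. Deviations of same-numbered libraries correlated at -0.00955 over the 1366 loops. Counting error at single pixels enters that value, and a shift common to all loops does not. It therefore cannot show whether the shared numbers pair the libraries.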
